A study of Mus musculus with 16 samples.

Results

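The data concerned 10 genes that encode transcription factors of the pluripotency network: Pou5f1, Sox2, Nanog, Klf2, Klf4, Klf5, Esrrb, Tfcp2l1, Tbx3 and Prdm14. They were taken by name from the GENCODE M21 annotation, where they are 10 of 21938 protein-coding genes. Chromatin immunoprecipitation with sequencing had been done for RNA polymerase II (Pol II, through its largest subunit RPB1) and for histone H2B carrying a single ubiquitin (H2Bub1). Wild-type cells (WT, Atxn7l3+/+) were compared with cells lacking Atxn7l3 (KO, Atxn7l3-/-), the gene of an adaptor protein that histone H2B deubiquitylases need. Both genotypes were DBA/2 x C57BL/6, and each was studied as mouse embryonic stem cells (mESCs) and as mouse embryonic fibroblasts (MEFs). The mESCs came from blastocysts of heterozygous parents and grew without feeders, in LIF, 15% serum, 1 µM PD0325901 and 3 µM CH99021. The MEFs were made at E10.5 and grew in 10% serum, and neither cell type received a further treatment. The null allele was constitutive, and how many embryos or lines stand behind a library is not given in the sources used here. Each of the 8 groups was 1 library, so differences between groups could not be set against replicate error, and p-values are not given. The study calls the KO fibroblasts MEF-like.

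The pluripotency network keeps embryonic stem cells undifferentiated. Oct4 (from Pou5f1), Sox2 and Nanog form its core and bind near one another's genes, while Esrrb, Tfcp2l1, Tbx3, Prdm14 and the Krüppel-like factors sustain the naive state and act downstream of LIF, Wnt and inhibition of MEK. H2Bub1 is placed on transcribed chromatin while Pol II elongates and is removed by deubiquitylases, among them those that work with ATXN7L3. Klf2, Klf4, Klf5 and Tbx3 also have roles outside the early embryo, whereas Pou5f1, Nanog and Prdm14 are shut in most somatic cells.

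The deposited files were lists of called peaks. The Pol II lists held 11963 to 45870 peaks and the H2Bub1 lists 19725 to 48952, and the Pol II lists of MEFs were longer than those of mESCs. The fold of a peak is its enrichment over the local background used in that library's peak calling. Fold values set side by side therefore do not set a level across libraries. Whether an input library gave this background is not stated in the sources used here. Read depth is unknown. At the targeted gene, Atxn7l3, a Pol II promoter peak was called in all 4 libraries, with its summit upstream of the part that the study's loxP sites flank (exons 2 to 12). Of the 2745 bp that these exons span in all 4 transcripts with an exon 12, H2Bub1 peaks covered 100% in WT and 0.401% in KO mESCs, whereas 9.65% and 7.43% in MEFs do not tell the genotypes apart. Of 12 fibroblast genes, 12 had a Pol II promoter peak in each MEF library and 1 in each mESC library. Their summed promoter fold was 320.4 in WT and 175.9 in KO MEFs, against 4.73 and 6.28 in WT and KO mESCs. Of 6 mESC markers, 4 of which are among the 10 genes described here, 5 had a promoter peak in each mESC library and 0 in either MEF library. Of 7 genes of primitive endoderm and trophoblast, none had a promoter peak in mESCs. Gata6 had one of fold 6.37 in WT MEFs and of 22.2 in KO MEFs, where Gata4 also had one of 4.06, and the other 5 were at 0 throughout. Of 4 germ cell genes, 1 had a promoter peak in both mESC libraries, a different one had it in WT MEFs, and none had it in KO MEFs. In bulk chromatin, fewer cells with a bound gene and less Pol II per cell cannot be told apart.

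In both mESC libraries, 9 of the 10 genes carried a Pol II peak within 1000 bp of the transcription start site (TSS), and Esrrb did not. Such a peak was called at 33.9% of all protein-coding genes in WT mESCs and at 31.3% in KO mESCs. In MEFs the count was 4 of 10 in WT (Klf2, Klf4, Klf5 and Tbx3) and 5 of 10 in KO, where Tfcp2l1 joined them, against 54.1% and 51.1% of all genes. Pou5f1, Sox2, Nanog, Tfcp2l1 and Prdm14 had a peak in WT mESCs and none in WT MEFs, a pattern of 1.82% of all genes. Among KO libraries 4 of the 5, without Tfcp2l1, showed it, against 1.65% of all genes. The fold at the 9 promoters ran from 3.81 to 18.4 in WT mESCs, with a median of 5.98, and from 3.55 to 16.6 in KO mESCs, with a median of 8.78. All promoters with a peak had a median fold of 4.39 in WT and 4.53 in KO mESCs.

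**Figure D1:**
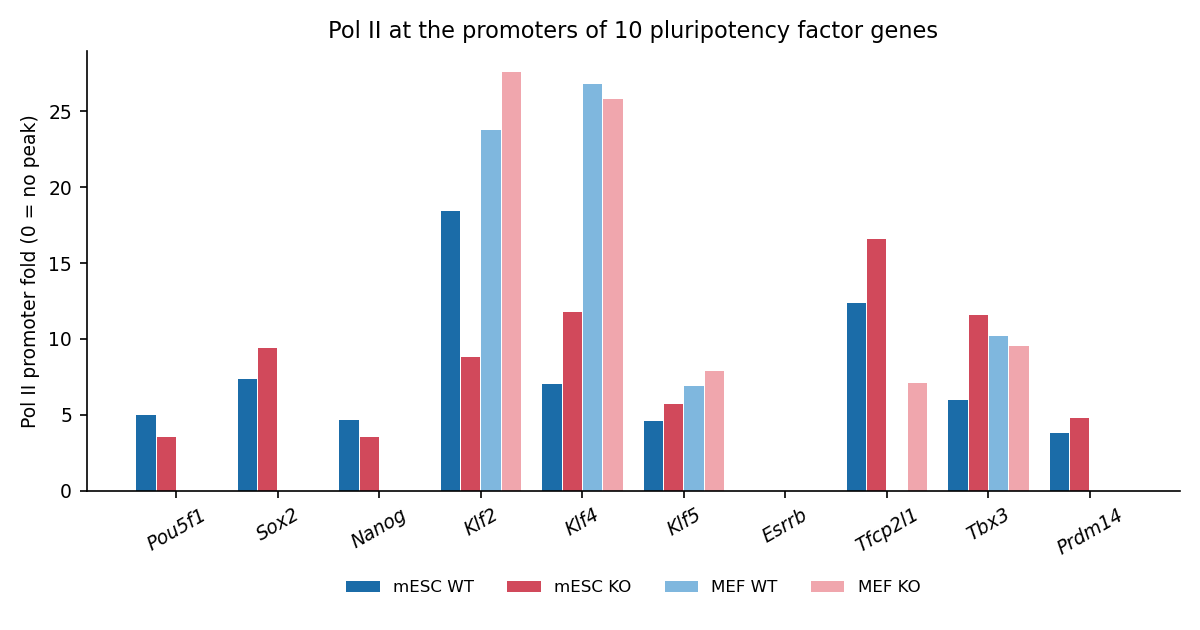
Pol II fold over local background at the promoter (up to 1000 bp from the TSS) of each gene, 1 bar per library, where 0 means that no peak was called. Klf2 and Klf4 reach 23.8 to 27.6 in MEFs, Pou5f1, Sox2, Nanog and Prdm14 have bars in mESCs alone, and Esrrb has none.

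Pou5f1 encodes Oct4, the POU-domain factor without which no pluripotent cells form. It lies on the plus strand at chr17:35506018-35510772 (mm10). In mESCs the Pol II promoter fold was 5.01 in WT and 3.55 in KO, and no promoter peak was called in either MEF library. The peak with the value of 5.01 only reached into the window: its summit lay 2092 bp upstream of the TSS. The peak with its summit inside the promoter, 98 bp downstream of the TSS, had a fold of 3.25 in WT, against 3.55 at 476 bp in KO. The KO value was thus 0.708 times the WT value by the strongest overlapping peak, and slightly above it by the summit inside the promoter. The 300 bases around the RefSeq start are shown because the promoter is bound in mESCs and unbound in MEFs. They end short of both inner summits. Capitals mark matches to the motifs listed after the next sequences.
Pou5f1 promoter (chr17:35505782-35506081, plus strand): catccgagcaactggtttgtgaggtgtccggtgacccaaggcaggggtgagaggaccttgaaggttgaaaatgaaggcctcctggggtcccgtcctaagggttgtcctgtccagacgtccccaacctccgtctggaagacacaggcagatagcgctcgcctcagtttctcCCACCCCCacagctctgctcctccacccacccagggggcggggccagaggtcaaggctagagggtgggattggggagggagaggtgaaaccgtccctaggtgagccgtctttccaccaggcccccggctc

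Sox2 encodes the HMG-box partner of Oct4 and is a gene of a single exon at chr3:34650405-34652461, plus strand, with the nearest coding gene, Dnajc19, 569084 bp away. The promoter fold was 7.33 in WT mESCs, with the summit 62 bp downstream of the TSS, and 9.41 in KO mESCs, with the summit 145 bp upstream. In MEFs the nearest Pol II peak was 567945 bp from the TSS in WT and 568660 bp in KO. Sox2 thus had the emptiest surroundings of the 10 genes in both MEF libraries.

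Nanog, at chr6:122707489-122714633 on the plus strand, encodes the homeodomain factor that stabilises self-renewal. Its promoter fold was 4.64 in WT and 3.55 in KO mESCs. The summits of both strongest peaks lay about 1 kb off the TSS, at -1002 bp in WT and 1008 bp downstream in KO. By summits inside the promoter the values were 4.09 in WT and 3.11 in KO mESCs, a ratio of 0.761 that was close to the 0.764 by overlap. No promoter peak was called in MEFs, but the nearest Pol II peak was only 3704 bp away in the WT library and 4114 bp in the KO library. The promoter is shown because the SOX letters, 67 bases upstream of the RefSeq start, and the KLF letters, 10 bases upstream and 24 downstream of it, fall within it.
Nanog promoter (chr6:122707239-122707538, plus strand): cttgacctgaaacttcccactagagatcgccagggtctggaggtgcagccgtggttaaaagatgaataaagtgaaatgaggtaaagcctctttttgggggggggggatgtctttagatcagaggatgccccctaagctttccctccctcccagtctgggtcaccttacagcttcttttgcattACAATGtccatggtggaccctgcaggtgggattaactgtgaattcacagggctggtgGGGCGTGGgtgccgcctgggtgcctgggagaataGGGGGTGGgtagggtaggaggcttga

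The Krüppel-like genes, which encode zinc-finger factors, had Pol II at their promoters in all 4 libraries, and Klf2 and Klf4 had the highest values of the group in MEFs. Klf2, at chr8:72319033-72321656 on the plus strand, had a promoter fold of 18.4 in WT and 8.78 in KO mESCs, the lowest KO to WT ratio, 0.476, among the 9 bound genes. In MEFs it was 23.8 in WT and 27.6 in KO. The WT mESC value was above 99.2% of promoters with a peak in that library, and the KO value above 93.2%. The peak itself remained long in both, 8.30 kb in WT and 6.89 kb in KO mESCs, and ran over the whole gene. In WT MEFs it was 6.81 kb long and ended 6.42 kb from the TSS. In KO MEFs the promoter peak was 1.52 kb, and 3 further peaks, of fold 2.85, 5.56 and 4.58, lay between 1.39 and 6.44 kb. Klf4, one of the reprogramming factors, lies on the minus strand at chr4:55527143-55532466. In mESCs its promoter fold was 7.05 in WT and 11.8 in KO. The values were 26.8 and 25.8 in WT and KO MEFs. Klf5, at chr14:99298691-99315036 on the plus strand, had the flattest values, 4.60 and 5.72 in WT and KO mESCs and 6.88 and 7.88 in WT and KO MEFs. The promoters of Klf2 and Klf4, 2 of the 4 genes bound in all 4 libraries, are shown beside that of Tfcp2l1, which was unbound in WT MEFs.
Klf2 promoter (chr8:72318812-72319111, plus strand): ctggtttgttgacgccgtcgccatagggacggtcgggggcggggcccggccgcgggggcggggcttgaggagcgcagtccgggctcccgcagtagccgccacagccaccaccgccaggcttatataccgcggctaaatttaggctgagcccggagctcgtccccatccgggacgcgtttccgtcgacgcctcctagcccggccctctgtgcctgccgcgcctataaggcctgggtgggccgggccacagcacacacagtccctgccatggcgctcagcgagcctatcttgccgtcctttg
Klf4 promoter (chr4:55532426-55532725, minus strand): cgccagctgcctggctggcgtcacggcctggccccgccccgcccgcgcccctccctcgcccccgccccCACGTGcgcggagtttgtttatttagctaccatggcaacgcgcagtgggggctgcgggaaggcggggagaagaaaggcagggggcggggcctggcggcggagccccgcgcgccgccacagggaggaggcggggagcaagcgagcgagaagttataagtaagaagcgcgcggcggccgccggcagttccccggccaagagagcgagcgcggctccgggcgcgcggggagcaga
Tfcp2l1 promoter (chr1:118627695-118627994, plus strand): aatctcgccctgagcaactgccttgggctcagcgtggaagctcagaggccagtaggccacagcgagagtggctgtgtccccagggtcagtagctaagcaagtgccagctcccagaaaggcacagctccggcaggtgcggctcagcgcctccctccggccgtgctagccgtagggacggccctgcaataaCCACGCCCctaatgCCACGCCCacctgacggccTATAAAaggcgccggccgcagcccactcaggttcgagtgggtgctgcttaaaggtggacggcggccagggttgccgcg

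Promoter sequences came from a RefSeq table of build GRCm38.p6, which runs from 250 bases before a start to 50 bases after it and held 7 of the 10 genes. Klf5, Tbx3 and Prdm14 had no entry. Both strands were searched for the octamer ATGCAAAT, the SOX letters ACAATG, the KLF letters GGGNGTGG, the ESRRB letters TCAAGGTCA, the core-promoter letters TATAAA, named TATA here, the E-box CACGTG and the STAT letters TTCNNNGAA, and no 2 matches in the printed sequences overlap. KLF letters stood in the promoters of Pou5f1, Nanog and Tfcp2l1, and in 17.6% of all 32851 promoters. SOX letters stood in at least one entry of Pou5f1, Nanog and Esrrb, and in 12.6% of all promoters. TATA letters stood 28 bases upstream of the start of Tfcp2l1, and in 13.6% of all. E-box letters stood in Klf4, and in 7.15% of all, while STAT letters stood in Esrrb, and in 8.30% of all. Octamer letters, in 1.74% of all promoters, and ESRRB letters, in 0.423%, stood in none of the 7. The promoters of Klf4 and Klf2 held 40 and 32 CpG dinucleotides, those of Sox2 and Tfcp2l1 27 and 21, and those of Pou5f1, Esrrb and Nanog 11, 7 and 4, against a median of 7 over all promoters. These are descriptions of 7 genes.

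Tfcp2l1 encodes a grainyhead-family factor of the naive state, at chr1:118627945-118685168 on the plus strand. The promoter fold was 12.4 in WT and 16.6 in KO mESCs. In WT MEFs no peak was called, and in KO MEFs 1 peak had a fold of 7.08, its summit 98 bp downstream of the TSS. Tbx3, a T-box factor of the naive state that is also used in limb and heart development, lies at chr5:119670669-119684724 on the plus strand. The promoter of Tbx3 had a fold of 5.98 in WT and 11.6 in KO mESCs, against 10.2 and 9.56 in WT and KO MEFs. Prdm14, a PR-domain protein that represses differentiation genes and DNA methylation in naive cells, lies at chr1:13113457-13127163 on the minus strand. Its fold was 3.81 in WT and 4.79 in KO mESCs, the lowest of the 9 in WT, and no promoter peak was called in MEFs. In KO mESCs 3 peaks had their summits inside the promoter of Prdm14, against 1 in WT, and the strongest lay 630 bp downstream of the TSS. In a narrower promoter, from 100 bp upstream to 300 bp downstream, the log2 ratio of KO to WT was -0.36 in place of 0.33.

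Set side by side, the KO to WT ratio of the promoter fold in mESCs ran from 0.476 at Klf2 to 1.94 at Tbx3, with a median of 1.26 over the 9 genes and of 1.02 over all promoters with a peak in both libraries. A fold at least 1.5 times higher in KO was found at 2 of 9 genes, Klf4 and Tbx3, against 11% of all such promoters. A fold at least 1.5 times lower was found at 1 of 9, Klf2, against 10.8%. Both counts are within 1 or 2 genes of what the shares of all promoters would give. In MEFs the ratio ran from 0.937 to 1.16 over the 4 genes with a peak in both. None of these 4 was 1.5 times higher, against 5.72% of all promoters, and none was 1.5 times lower, against 24.3%. With 1 library per group there was no test across genes, and no unadjusted p exists beside these counts.

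Esrrb encodes an orphan nuclear receptor of the naive network and is the longest of the genes, 160512 bp at chr12:86361117-86521628 on the plus strand. No Pol II peak lay within 1000 bp of its outermost TSS in any library, and in mESCs the nearest was 108895 bp away in WT and 74486 bp in KO. A peak was called in both mESC libraries at the start of an internal coding transcript, Esrrb-206, which begins 109 kb into the gene record. Its fold was 4.52 in WT, with the summit 155 bp downstream of that start, and 4.82 in KO, with the summit 47 bp downstream. The WT summit falls in exon 1 of this transcript, which is coding sequence and also exon 2 of 4 longer transcripts. With the starts of all annotated transcripts, 10 of 10 genes had a Pol II promoter peak in both mESC libraries, against 37.5% of all genes in WT and 34.4% in KO. The strongest peak of the gene lay further in, 142779 bp from the outermost TSS in WT, with a fold of 7.48 in WT and 5.61 in KO. The whole gene held 10 Pol II peaks outside its promoter in WT and 4 in KO mESCs. None was called there in MEFs. The bases around the internal WT summit hold none of the searched motifs and are shown as the site of Pol II nearest to a start of Esrrb.
Esrrb internal start (chr12:86470172-86470372, plus strand): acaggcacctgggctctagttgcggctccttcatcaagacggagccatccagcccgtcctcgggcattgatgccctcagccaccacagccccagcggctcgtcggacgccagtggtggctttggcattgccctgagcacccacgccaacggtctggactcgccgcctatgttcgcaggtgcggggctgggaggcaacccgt

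Pol II peaks in the gene body outside the promoter were found at 4 of 10 genes in WT mESCs (Esrrb, Tfcp2l1, Tbx3 and Prdm14), against 17.5% of all genes. In KO mESCs they were found at 4 of 10 (Klf4, Esrrb, Tfcp2l1 and Tbx3), against 11.1%. Counting instead every peak with a summit more than 300 bp into the gene, they were found at 5 of 10 in WT and 7 of 10 in KO mESCs, against 21.7% and 15.7% of all genes. In MEFs the counts were 2 of 10 in WT (Klf4 and Tbx3), against 33% of all genes, and 2 of 10 in KO (Klf2 and Klf4), against 25.4%. Tbx3 held 5 such peaks in WT and 3 in KO mESCs, with highest folds of 8.65 and 6.71, above the fold of its promoter in WT. These 2 highest values came from different sites. The peak of 8.65 ran across the end of the gene, with its summit 575 bp beyond it, where the KO fold was 7.71. The KO value of 6.71 lay near the start of the transcript Tbx3-205, 9.58 kb into the gene, where the WT fold was 6.75.

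H2Bub1 peaks lay on the gene body of 10 of 10 genes in both mESC libraries, against 53.6% of all genes in WT and 60.8% in KO. In MEFs 2 of 10 had one in WT, Klf2 and Klf4, against 30.4% of all genes, and 5 of 10 in KO, against 53%. H2Bub1 peaks covered a median of 83.1% of the body in WT and 92.5% in KO mESCs, where the exact binomial intervals over the 10 genes, 61.3 to 100% and 72.6 to 100%, overlap and describe the spread among genes only. Over all protein-coding genes the median was 0.866% and 5.64%, and over those with a Pol II promoter peak 17.4% and 40.8%. In MEFs the median of the 10 genes was 0% in WT and 3.91% in KO. Most of each gene but Esrrb was thus marked in WT mESCs, and most genes were unmarked in WT MEFs.

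**Figure D2:**
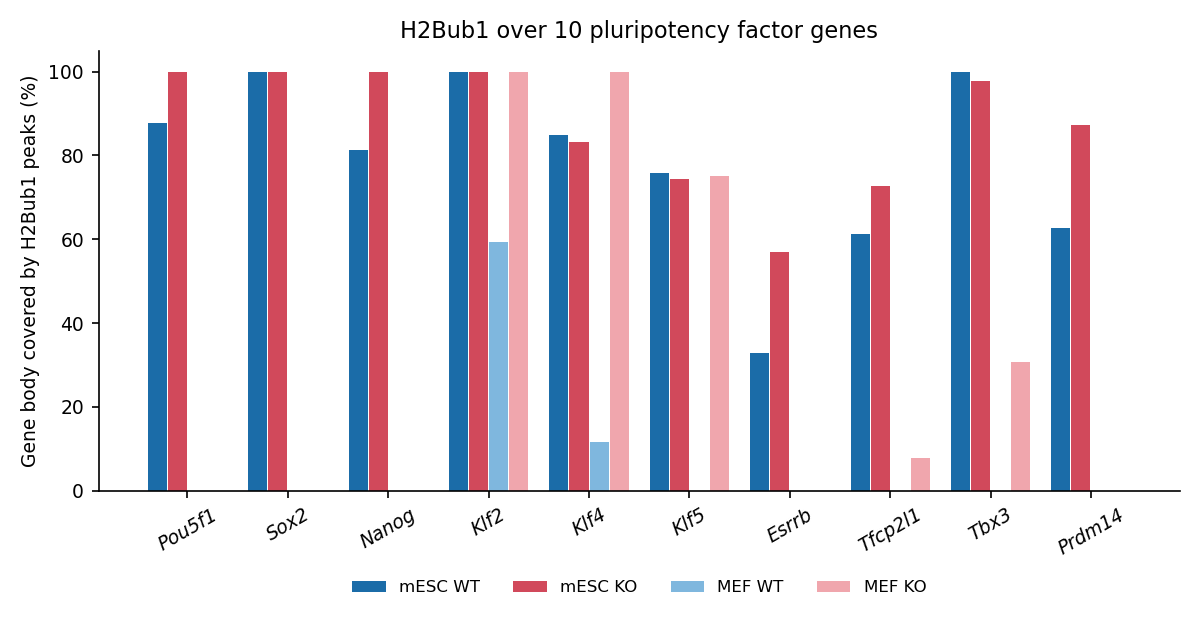
Share of each gene body, from TSS to the end of the gene record, that lay inside H2Bub1 peaks, 1 bar per library and no bar where it was 0%. All 10 genes are covered by 32.8% or more in mESCs, and only Klf2 (59.4%) and Klf4 (11.6%) have a bar in WT MEFs.

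Among the core genes, Pou5f1 was covered by 87.7% in WT and 100% in KO mESCs, Nanog by 81.3% and 100%, and Sox2 by 100% in both. In WT the uncovered part of Pou5f1 was its 3' end, and Nanog was uncovered up to 0.205 kb and between 2.77 and 3.90 kb from the TSS. KO peaks covered all these parts. In the naive factors the share was 61.3% and 72.6% in WT and KO mESCs at Tfcp2l1, 62.6% and 87.3% at Prdm14, and 32.8% and 57.1% at Esrrb. Klf2 was covered by 100% in both libraries. Tbx3 went from 100% to 97.7%, Klf4 from 84.8% to 83.3% and Klf5 from 75.9% to 74.5%, differences of at most 2.28 percentage points. With peaks of −log10 q 3 or more alone, KO minus WT moved to -40.9 points at Klf5, from 24.3 to 13.0 at Esrrb and from 11.3 to 22.5 at Tfcp2l1. With 5000 bp added on both sides of the gene it was 13.4 points at Tbx3, 18.9 at Sox2, 11.7 at Klf2, 26.9 at Pou5f1 and -12.0 at Klf5. A higher share in KO mESCs was found at 5 of 10 genes, against 83.6% of the genes with H2Bub1 in at least one of the libraries. With 5000 bp added on both sides of the gene it was found at 8 of 10, against 86.7%. Sox2, Klf2 and Tbx3 had no room above 100%, and 5 of the remaining 7 were higher. Among all genes with a WT share from 32.8% to under 100%, 79.4% of 3403 were higher in KO, a comparison added after the values had been seen.

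In MEFs, all 5 genes with H2Bub1 in a library had a higher share in KO, against 98.7% of all such genes. Klf4 was covered by 11.6% in WT and 100% in KO, and Klf2 by 59.4% and 100%. With peaks of −log10 q 3 or more alone, no H2Bub1 was left on either in WT, and KO minus WT was 100 points at both. Klf5 was covered by 0% and 75.2% (a difference of 29.2 points with the stricter q), Tbx3 by 0% and 30.6%, and Tfcp2l1 by 0% and 7.82%. Pou5f1, Sox2, Nanog, Esrrb and Prdm14 were at 0% in both MEF libraries. The 5 marked genes in KO MEFs were the 5 with a Pol II promoter peak there. The Klf4 domain in KO MEFs ran from 1.89 kb upstream to 6.84 kb downstream of the TSS and was longer than either mESC domain over this gene, 7.35 kb in WT and 6.21 kb in KO. At Klf5, Tbx3 and Klf2 the promoter fold of Pol II in MEFs differed by 1.16 times or less between WT and KO. The summed promoter fold of the fibroblast list was lower in KO MEFs, with all 12 genes called in both, and its part in these differences was not tested.

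Within the longer genes the covered share differed along the gene. In Esrrb, the first 60.5 kb, up to the second group of annotated starts, were covered by 1.90% in WT and 2.14% in KO mESCs. The next 48.5 kb, up to the internal start, were covered by 10.1% in WT and 83.1% in KO. The last 51.5 kb, from the internal start to the gene end, were covered by 90.4% and 97.1%. With peaks of −log10 q 3 or more alone, a setting added after the values had been seen, the 48.5 kb were covered by 5.61% in WT and 41.4% in KO. In that stretch the only WT Pol II peak was the one that straddles the internal start, and KO had 1 more, of fold 3.75, at 74.5 kb. Each gene was also cut into 4 equal stretches from the TSS on. In Tfcp2l1 stretch 1 was covered by 76.8% in WT and 100% in KO, stretch 2 by 65.1% and 90.5%, and stretch 3 by 81.4% and 71.6%. In Prdm14 stretches 1 and 2 were full in both, stretch 3 was covered by 50.5% and 100%, and stretch 4 by 0% and 49.4%.

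**Figure D3:**
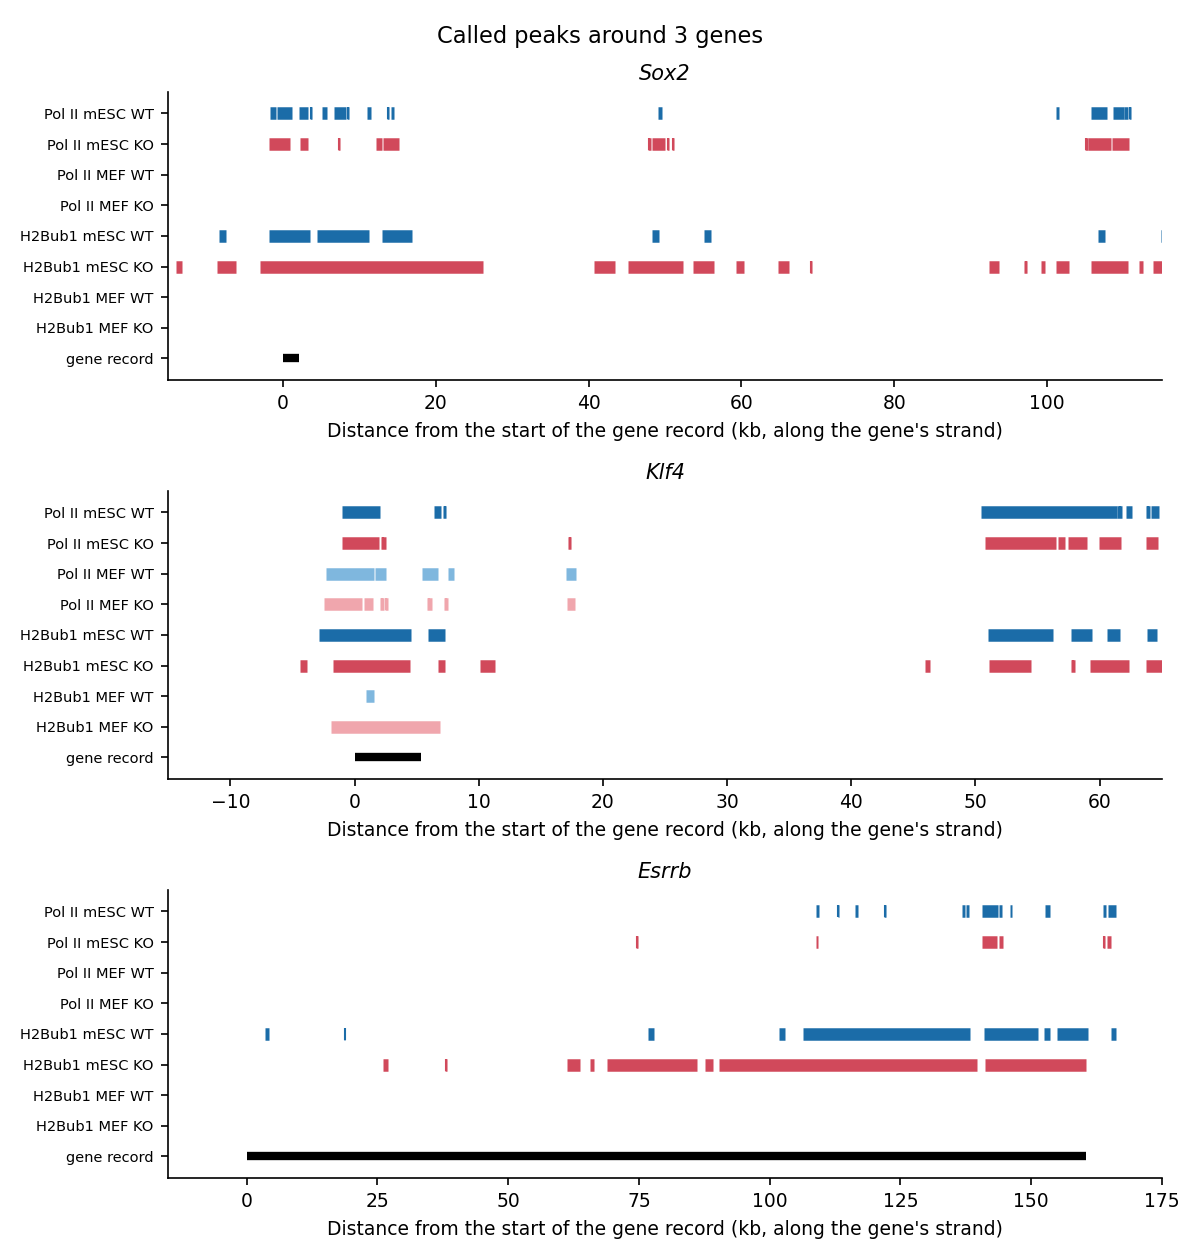
Called Pol II and H2Bub1 peaks (bars, 1 row per library) by distance from the TSS of Sox2, Klf4 and Esrrb in kb along the strand of the gene, with the gene record in black. In KO mESCs the H2Bub1 domain over Sox2 extends to 26.2 kb and H2Bub1 peaks cover 83.1% of the 48.5 kb before the internal start of Esrrb at 109 kb, and Klf4 has a Pol II domain near 54 kb in mESCs alone.

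The H2Bub1 fold over the gene body was lower in KO mESCs at 8 of 10 genes, against 34.2% of all genes with a peak in both. The 2 exceptions were Pou5f1, with 3.14 in WT and 4.96 in KO, and Nanog, with 3.51 and 3.73. Klf2 went from 8.18 to 5.03, Sox2 from 7.51 to 4.09, Tbx3 from 6.68 to 4.84 and Prdm14 from 4.16 to 3.28. Klf4 (7.00 and 6.63), Klf5 (4.45 and 4.10), Esrrb (3.88 and 3.60) and Tfcp2l1 (3.71 and 3.47) differed by less than 1.1 times. By the highest fold of any peak in the gene, the log2 ratio of KO to WT was -0.82 at Tfcp2l1 and 0.14 at Klf5, where the stricter q gave 0.32, and -0.03 at Nanog. The median ratio of KO to WT was 0.924 over the 10 genes and 1.05 over all genes. In WT mESCs the fold of Klf2 was above that of 99.9% of all genes with a peak, followed by Sox2, Klf4 and Tbx3, the last above 99.6%. Among all 2731 genes with a WT fold of at least 3.14, the lowest of the 10 genes, 49.7% were lower in KO, a comparison added after the values had been seen. In MEFs none of the 2 genes with a peak in both libraries was lower, against 17.6% of all: Klf2 went from 2.87 to 5.65 and Klf4 from 2.76 to 4.19. With the stricter q neither WT peak remained, and no gene was left to compare.

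The fold of a broad peak is a mean over the called peak, and the peaks were mostly longer in KO. The total length of the H2Bub1 peaks touching the gene was higher in KO mESCs at 8 of 10 genes, and lower at Klf4 and Klf5. The share of all genes with longer peaks in KO was not counted, so the 8 are not set apart from other genes. Sox2 was the extreme: its peak ran from 1.78 kb upstream to 3.49 kb downstream of the TSS in WT, and from 3.04 kb upstream to 26.2 kb downstream in KO, 5.54 times as long. In WT, separate H2Bub1 peaks lay further along the same stretch. The peaks at Pou5f1 were 1.83 times and those at Esrrb 1.73 times as long in KO. The median length ratio was 1.33 over the 10 genes, 2.17 over all genes with a peak in both and 1.38 over the 3725 genes with a WT share of at least 32.8%. At Pou5f1 and Nanog both the length and the fold were higher in KO, and at Klf4 and Klf5 both were lower. The part of peak length in the lower folds was not tested.

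**Figure D4:**
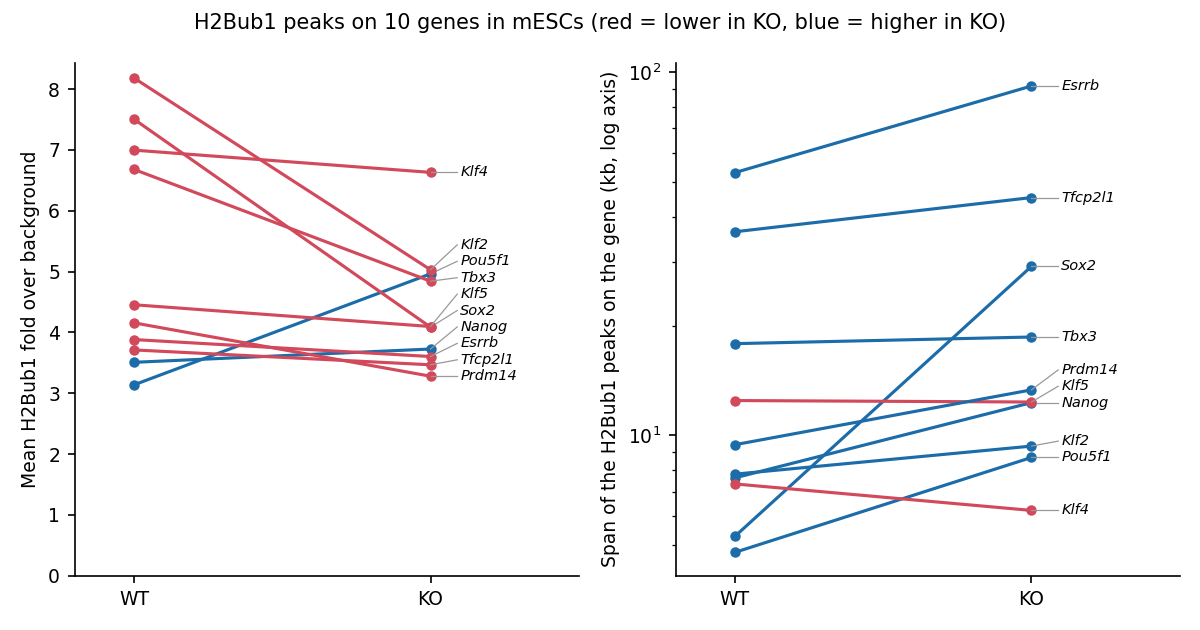
Mean H2Bub1 fold over the gene body (left) and total length of the H2Bub1 peaks touching it in kb on a log axis (right) in WT and KO mESCs, 1 line per gene. In the left panel all lines but those of Pou5f1 and Nanog go down, and in the right panel all but those of Klf4 and Klf5 go up.

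Pol II was also called in the surroundings of these genes. Within 50 kb outside the gene records 61 Pol II peaks were called in the WT library of mESCs and 39 in the KO library, with 15 and 16 in those of MEFs. Of these, 48, 34, 10 and 9 lay outside all other coding genes and their promoters and are called intergenic here. The Pol II list of KO mESCs was the shorter one, and with equal numbers of peaks the mESC counts were 41 in WT and 39 in KO. The same count was made for every coding gene. In WT mESCs the median gene of the 10 had 4 intergenic peaks within 50 kb and the median coding gene had 0, with at least 1 at 28.6% of all genes, and 7 of the 10 were above the 90th percentile of all genes, which was 2. In KO mESCs the medians were 3 and 0, and 9 of the 10 were above the 90th percentile of 1. In MEFs 0 of the 10 were above the 90th percentile, which was 4 in WT and 3 in KO. Between genotypes, 21 of the 48 intergenic peaks of WT mESCs overlapped a KO peak, and 27 of the 34 of KO mESCs overlapped a WT peak. The 21 shared WT peaks had a median fold of 5.28, and the other 27 of 3.71. Of the 48, 3 overlapped a peak of WT MEFs. The shares of all intergenic peaks that overlap between libraries were not counted. These overlaps thus describe the surroundings of the 10 genes and do not set them apart from other genes.

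**Figure D5:**
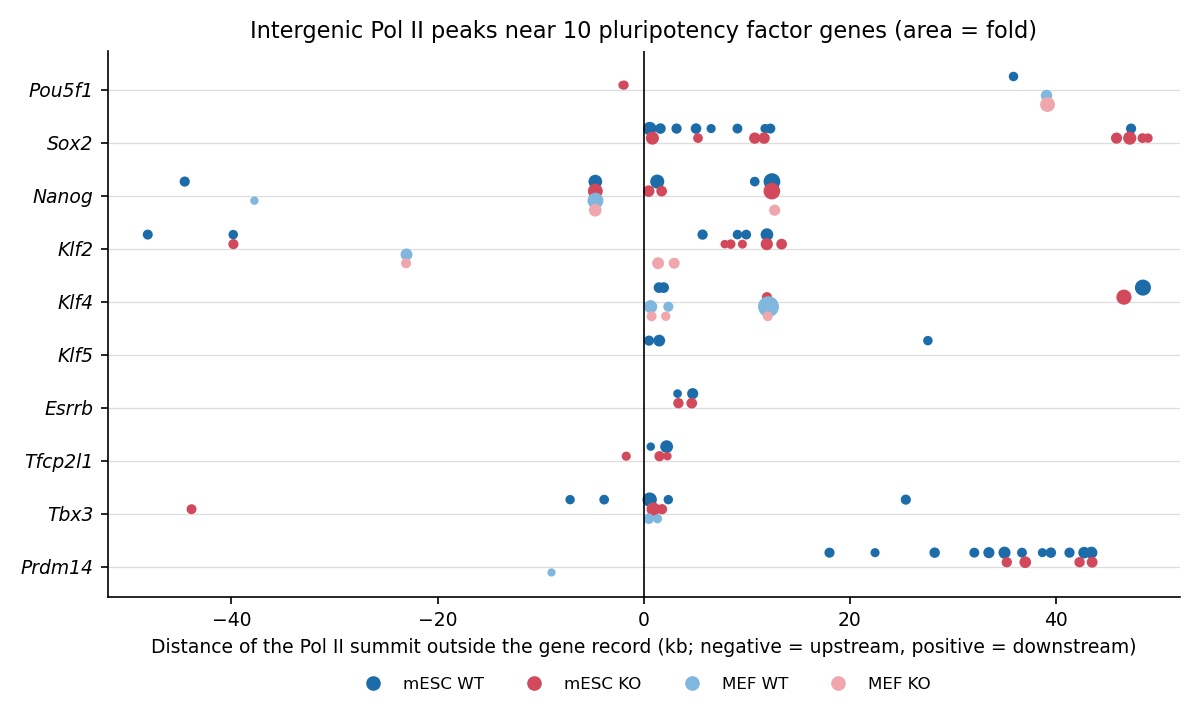
Intergenic Pol II summits within 50 kb of each gene, placed by the distance in kb outside the gene record, with 1 colour per library and a dot area in proportion to the fold. Blue and red dots of mESCs make up 48 and 34 of the summits, and the MEF dots 10 and 9.

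Prdm14 had the most intergenic peaks in WT mESCs, 12, all downstream of the gene and 31.7 to 57.1 kb from its TSS, with folds of 2.82 to 5.74. In KO mESCs 4 were called in this stretch, with folds of 3.94 to 5.32. The strongest WT peak there lay over the long non-coding RNA gene Gm29283. Sox2 had 9 in WT and 8 in KO. The WT peaks were spread from 2.64 to 14.3 kb downstream, with 1 more 49.3 kb away of fold 3.74. The KO peak nearest to that last site, at 49.2 kb, had a fold of 7.10. Closest to the gene, the fold was 7.49 in WT, 2.64 kb downstream, and 6.92 in KO, 2.895 kb downstream. The 8 WT peaks close to Sox2 lay over Sox2ot, a non-coding gene that overlaps it. Klf5 had 3 in WT, the strongest of fold 5.42, and 0 in KO. Klf2 had 6 in each mESC library, the strongest 14.6 kb downstream with folds of 6.41 and 5.89, inside H2Bub1 peaks that covered 100% of it in both. Tbx3 had its strongest 14.6 kb from the TSS, just beyond the gene end and over Tbx3os2, a long non-coding RNA gene, with folds of 8.65 in WT and 7.71 in KO mESCs. A peak of fold 4.13 overlapped it in WT MEFs and none in KO MEFs. Just past the ends of Esrrb and Tfcp2l1 the strongest peaks had folds of 4.71 and 6.60 in WT and 4.26 and 3.81 in KO mESCs. Pou5f1 had 1 intergenic peak in WT mESCs, of fold 3.16, and 2 in KO mESCs, of fold 2.36 and 2.94, 2053 and 1911 bp upstream of the TSS. That site was bound in WT too, by the peak of fold 5.01 that reaches into the promoter window and is therefore not counted here. It had 1 in each MEF library, 43.8 kb downstream in WT with a fold of 5.03 and 43.9 kb in KO with 9.43.

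Regions of strong intergenic Pol II were found near Klf4, Sox2 and Nanog. Beyond Klf4 lay a Pol II domain of 10913 bp at chr4:55471104-55482016, its summit 53.8 kb downstream of the TSS, with a fold of 11.3 in WT mESCs. It ranked 2 in width among the 4627 intergenic Pol II peaks of WT mESCs and 69 in fold. In KO mESCs 4 separate peaks overlapped it, the highest with a fold of 9.80, and in MEFs the nearest peak was 35896 bp away in WT and 35978 bp in KO. H2Bub1 covered 70.0% of the domain in WT mESCs and 53.4% in KO. Beyond Sox2, at chr3:34756105-34758196, a peak 107.1 kb downstream of the TSS had folds of 9.69 in WT and 7.85 in KO mESCs. It lies outside the window of 50 kb, and in MEFs the nearest Pol II peak was 675025 bp away in WT. H2Bub1 covered 42.6% of it in WT and 100% in KO mESCs. Downstream of Nanog, between it and Slc2a3, a glucose transporter gene, a peak 19.6 kb from the TSS had folds of 12.4 in WT and 12.2 in KO mESCs, the highest of all intergenic peaks near the 10 genes in mESCs. The summit of this Nanog downstream peak lay 740 bp from the Slc2a3 record in WT and 749 bp in KO mESCs, at the end far from the Slc2a3 start. Pol II peaks were also called inside Slc2a3 in both mESC libraries, and which gene the peak belongs to was not tested. The peak had no overlapping peak in WT MEFs and one of fold 4.72 in KO MEFs.

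A site 4.7 kb upstream of Nanog carried Pol II in both cell types. Pol II peaks were called there in all 4 libraries, with folds of 7.69 and 9.46 in WT and KO mESCs, and 11.03 and 6.47 in WT and KO MEFs. The summits of the 2 mESC peaks fell on the same base, and those of the MEF peaks 11 bp and 12 bp from it. Klf4 in turn had a site with its highest value in WT MEFs: a peak 17.4 kb downstream of its TSS had a fold of 20.4 in WT and 3.54 in KO MEFs. A peak of fold 3.75 was called 17.3 kb downstream in KO mESCs and none in WT mESCs. The sequences of 201 bases around the WT mESC summits of the 4 described mESC sites, read from GRCm38.p6 on the strand of the gene, are given because these sites separate or join the cell types.
Nanog upstream site (chr6:122702689-122702889, plus strand): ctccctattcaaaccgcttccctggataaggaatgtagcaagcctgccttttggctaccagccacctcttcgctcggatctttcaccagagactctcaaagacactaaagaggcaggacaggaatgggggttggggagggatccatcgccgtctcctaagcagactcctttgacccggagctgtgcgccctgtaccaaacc
Nanog downstream site (chr6:122726969-122727169, plus strand): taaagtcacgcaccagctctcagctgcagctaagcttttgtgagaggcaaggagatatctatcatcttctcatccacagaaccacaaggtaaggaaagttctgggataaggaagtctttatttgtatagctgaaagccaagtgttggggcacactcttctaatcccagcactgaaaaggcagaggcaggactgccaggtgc
Sox2 downstream site (chr3:34757385-34757585, plus strand): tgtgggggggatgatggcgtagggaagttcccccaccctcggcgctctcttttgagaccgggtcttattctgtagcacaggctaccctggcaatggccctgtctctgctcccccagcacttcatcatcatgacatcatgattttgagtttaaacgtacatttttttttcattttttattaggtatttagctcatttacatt
Klf4 downstream site (chr4:55478614-55478814, minus strand): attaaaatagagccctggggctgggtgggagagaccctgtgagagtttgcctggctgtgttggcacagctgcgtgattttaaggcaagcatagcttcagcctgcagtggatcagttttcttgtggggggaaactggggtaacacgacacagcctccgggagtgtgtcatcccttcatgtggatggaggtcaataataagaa

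None of these 4 windows held a match to the searched motifs. Among the windows at the strongest intergenic WT mESC peak within 120 kb of each of the 10 genes, those of Pou5f1, Klf2 and Esrrb held the SOX letters and that of Klf5 the TATA letters. Among windows of the same length around all 17074 Pol II summits of WT mESCs, the KLF letters stood in 11.7%, SOX in 5.87%, E-box in 5.31%, TATA in 3.93%, STAT in 3.80%, octamer in 0.539% and ESRRB in 0.504%.

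Other genes of the network were counted by list. Of 20 naive and core partners, 11 and 10 had a Pol II promoter peak in WT and KO mESCs (33.9% and 31.3% of all genes), and 4 and 5 in the MEF libraries (54.1% and 51.1%). H2Bub1 lay on 17 and 19 of them in WT and KO mESCs (53.6% and 60.8% of all genes). In WT and KO MEFs it lay on 3 and 5 (30.4% and 53% of all genes). The H2Bub1 share was higher in KO mESCs at 14 and lower at 4, against 83.6% higher among all genes with H2Bub1. The highest promoter fold of the list in WT mESCs was 10.9 at Rif1, a chromatin protein of DNA replication timing, and the lowest called was 3.24 at Utf1. Tdgf1, the gene of the Nodal co-receptor Cripto, had 7.37 in WT and 2.81 in KO mESCs. Of 12 genes of LIF, STAT3 and Wnt signalling, 9 had a promoter peak in WT and 6 in KO mESCs, with the highest WT value at the Wnt effector Tcf7l1, 8.15 in WT and 3.93 in KO. In MEFs 8 of the 12 had one in each library, and the H2Bub1 share was higher in KO at 12 of 12, near the 98.7% of all genes with H2Bub1 there. Of 8 formative and primed genes, 3 had a promoter peak in each mESC library, of which only Zic2 was bound in both.

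The genes nearest to the median pattern of the 10, over 8 values each (log2 of 1 plus the Pol II promoter fold, and the H2Bub1 share, in 4 libraries, scaled by the SD over all genes), were Gdf3, Slc39a4, Foxd3, Hap1 and Tcf15, at distances of 0.884 to 0.939 SD. Gdf3, a ligand of the TGF-beta family, had promoter folds of 6.72 and 6.70 in WT and KO mESCs and shares of 80.0% and 100%, and nothing in MEFs. The nearest to Pou5f1 and to Nanog were the same pair, the zinc-finger gene Sall4 and 2410137M14Rik, at 0.213 to 0.356 SD. The nearest to Sox2 were Nodal, at 0.439 SD, and Tex19.1, at 0.515 SD, each with 100% coverage in both mESC libraries and none in MEFs.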

How the data were processed

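Of 16 labelled samples, the 8 with peak lists (Pol II and H2Bub1, WT and KO, mESCs and MEFs, 1 library each) were used, and the other 8 were not analysed here. Per the submitters' processing notes the reads were handled with bcl2fastq 2.17.1.14, Bowtie 1.0.0 and MACS2 2.1.1.20160309 on mm10. The authors called narrow peaks for Pol II and broad peaks for H2Bub1 in each library alone. The input used and the thresholds are not given in the sources used here. The methods put normalization before peak calling, H2Bub1 by size factors over intergenic regions and Pol II by mapped reads, without saying how it entered the calls. The deposited fold is a ratio over local background, at the summit for narrow and averaged for broad peaks. The deposited lists also give the −log10 p and −log10 q of each peak and the offset of the narrow summit.

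Peaks were set against GENCODE M21 (GRCm38), and all ended within their chromosome. Promoters reached 1000 bp from the start of the gene record in both directions, with an overlap of at least 1 bp. The fold of a promoter was that of its strongest peak, and the H2Bub1 fold was weighted by the bases inside the gene. Genes are named by the rule that takes all 10 members, the highest and lowest of each list, the nearest in pattern and the coding genes beside a described peak; Tdgf1, Zic2, Gata4 and Gata6 were named after their values were seen. The members and the lists were chosen with earlier results of these data known. Functions were tested on simulated peaks. Python 3.11.15, numpy 2.4.6, pandas 2.3.3, pysam 0.24.0 and matplotlib 3.10.9 were used. Results were recomputed with a stricter −log10 q (3 or more), peak lists of equal number, other windows for promoter, gene body and distance, and joined peaks. The shares of all genes under other promoter, gene body and flank settings were added after the values had been seen.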

Additional observations from a re-analysis of the deposited data

Results flagged for a closer look

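At 4 genes the KO value moved one way in mESCs and the other way in MEFs. With 1 library per group the difference was not tested. For the Pol II promoter fold, the log2 ratio of KO to WT was -1.07 in mESCs and 0.22 in MEFs at Klf2. It was 0.74 and -0.055 at Klf4, and 0.96 and -0.094 at Tbx3. The MEF values of Klf4 and Tbx3 are close to 0, and that of Klf2 is under 1.5-fold.

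For the H2Bub1 fold, the log2 ratio was -0.70 in mESCs and 0.98 in MEFs at Klf2, and -0.077 and 0.60 at Klf4. For the covered share of the gene body, KO minus WT was -1.50 percentage points in mESCs and 88.4 in MEFs at Klf4, -1.39 and 75.2 at Klf5, and -2.28 and 30.6 at Tbx3. With 5000 bp added on both sides of the gene, the mESC value of Tbx3 was 13.4, in the same direction as in MEFs. With a −log10 q of at least 3, the values of Klf5 were -40.9 in mESCs and 29.2 in MEFs. The WT MEF share was 0% at Klf5 and Tbx3.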

How the results depend on the processing

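No paired analysis was possible because each group is 1 library. Counts of genes with a Pol II promoter peak stayed within 1.5 times under all alternatives run. With a −log10 q of at least 3 or with equal numbers of peaks, no count and no median over the genes moved beyond its limit. Other windows moved 10 values. With a summit more than 300 bp into the gene, 7 genes had Pol II in the body in KO mESCs. Within 20 kb, 35 Pol II peaks were counted in WT mESCs, with 9 and 10 in the WT and KO libraries of MEFs. Within 120 kb there were 65 in KO mESCs, with 35 and 38 in MEFs. With 5000 bp added on both sides of the gene, the H2Bub1 share was higher in KO mESCs at 8 genes, with a median of 56.2% for WT and of 69.5% for KO. Values of single genes moved in 19 cases and did not in 128. None that was past 1.5-fold or 10 points changed sign, but smaller ones did at 5 genes. At Klf5 the KO minus WT share in mESCs was -40.9 points with a −log10 q of at least 3, against -1.39, and 29.2 in MEFs, against 75.2. With that q it was 13.0 in mESCs at Esrrb, against 24.3, and 22.5 at Tfcp2l1, against 11.3. With 5000 bp on both sides it was 13.4 in mESCs at Tbx3, against -2.28, 18.9 at Sox2 and 11.7 at Klf2, both against 0, 26.9 at Pou5f1, against 12.3, and -12.0 at Klf5. In MEFs the same flanks gave 22.7 at Klf2, against 40.6, 53.0 at Klf4, against 88.4, 46.6 at Klf5 and 17.9 at Tbx3, against 30.6. For the H2Bub1 fold in mESCs, Klf5 had a log2 ratio of 0.32 with the stricter q and 0.14 by the highest peak, against -0.12, Nanog -0.03 by the highest peak, against 0.09, and Tfcp2l1 -0.82 by the highest peak, against -0.098. At Klf2 and Klf4 no WT MEF peak of H2Bub1 passed the stricter q. At Pou5f1 the log2 ratio of the promoter fold was 0.12 by summit, against -0.50, and at Prdm14 -0.36 in the narrow promoter, against 0.33. The cause was not tested. Peaks without counts give no interval, so differences of a few percent in share or fold cannot be set apart from depth.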
